A study of Nasonia vitripennis with 39 samples.

Results

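In the deposited tables of Nasonia vitripennis, a parasitoid wasp, 42 rows have a symbol that starts with CYP and a digit. Of these cytochrome P450 genes 34 are described here. The rule left out 8 symbols (CYP9AG7, CYP4G43, CYP4AB8, CYP4AB12, CYP4AB14, CYP4AB18, CYP6CK8 and CYP6CK11). P450 genes with symbols written otherwise, for example in lower case, were not included, so 42 is not the number of all P450 genes. The tables hold 14621 genes. By number and letters of the symbol the 34 genes fall into 12 subfamilies, with 7 genes in CYP4AB, 5 in CYP6CK, 4 each in CYP6AQ, CYP6AS and CYP9AG, 3 in CYP9P, 2 in CYP9AH and 1 each in CYP314A, CYP336B, CYP4BW, CYP4G and CYP6BD. RefSeq lists 3 of them, CYP6AS28P, CYP6CK13P and CYP9AG8P, as transcribed pseudogenes. The rule reads symbols only, but the gene set was chosen with earlier results of these data known.

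Cytochrome P450 enzymes carry a haem group and insert an oxygen atom into small hydrophobic molecules. Insects use a few of them for fixed steps, such as the making of the moulting hormone or of the waxy hydrocarbons of the cuticle. The many others, mostly of the CYP4, CYP6 and CYP9 families, act on dietary toxins, insecticides, odorants and fatty acids, and are commonly found in the fat body, the gut, the Malpighian tubules and the antennae.

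Poly(A) RNA was sequenced from heads and abdomens of the Whiting Polyploid Line, a laboratory line in which polyploidy arose spontaneously, at 1 day after emergence. Males had 1 or 2 chromosome sets (1N, 2N) and females 2 or 3 (2N, 3N), which gives 8 groups by ploidy, sex and tissue. Each group had 5 libraries, except the 2N female abdomens with 4, so 39 in all. All animals, those with the usual ploidy included, came from this line. Neither the number of animals behind each library nor which head belongs with which abdomen is in the labels, so a p-value here refers to the spread among libraries of a group, part of which may be technical. Levels are given as CPM (counts per 1e+06 after TMM scaling) when samples are compared for 1 gene, and as TPM (scaled for gene length) when genes are compared. Differences are log2 fold changes ± a standard error worked back from the fold change and the F statistic of the edgeR test. A gene is said to be called, or to rise or fall, where the adjusted p of edgeR was under 0.05.

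Each library held 16.3 to 132 M (1e+06) estimated counts. The libraries split into 20 shallow libraries and 19 deep ones of over 30 M, and the classes were uneven: 0 of 5 2N female heads but 4 of 5 2N male heads were deep, as were 5 of 5 2N male abdomens, 1 of 4 2N female abdomens and 1 of 5 3N female abdomens. The 19 neuronal and eye genes on the marker list summed to between 3175 and 8890 CPM in heads and between 18.6 and 428 CPM in abdomens. The 4 ovary and germline markers (oskar, nanos, cycB and Cdk1) summed to between 1190 and 3731 CPM in female abdomens, and to at most 18.6 CPM in the other libraries except the 2N female head B21, with 147 CPM. For the P450 genes the libraries most often far from the rest of their group were the 1N male head B3 (7 of the values checked), the 1N male abdomen B6A (6), and the 2N male head B12A and the 3N female head B32 (3 each). B39A lay apart from the other 3N female abdomens for most P450 genes. In bulk tissue, fewer cells of a type and less RNA per cell cannot be told apart.

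**Figure D1:**
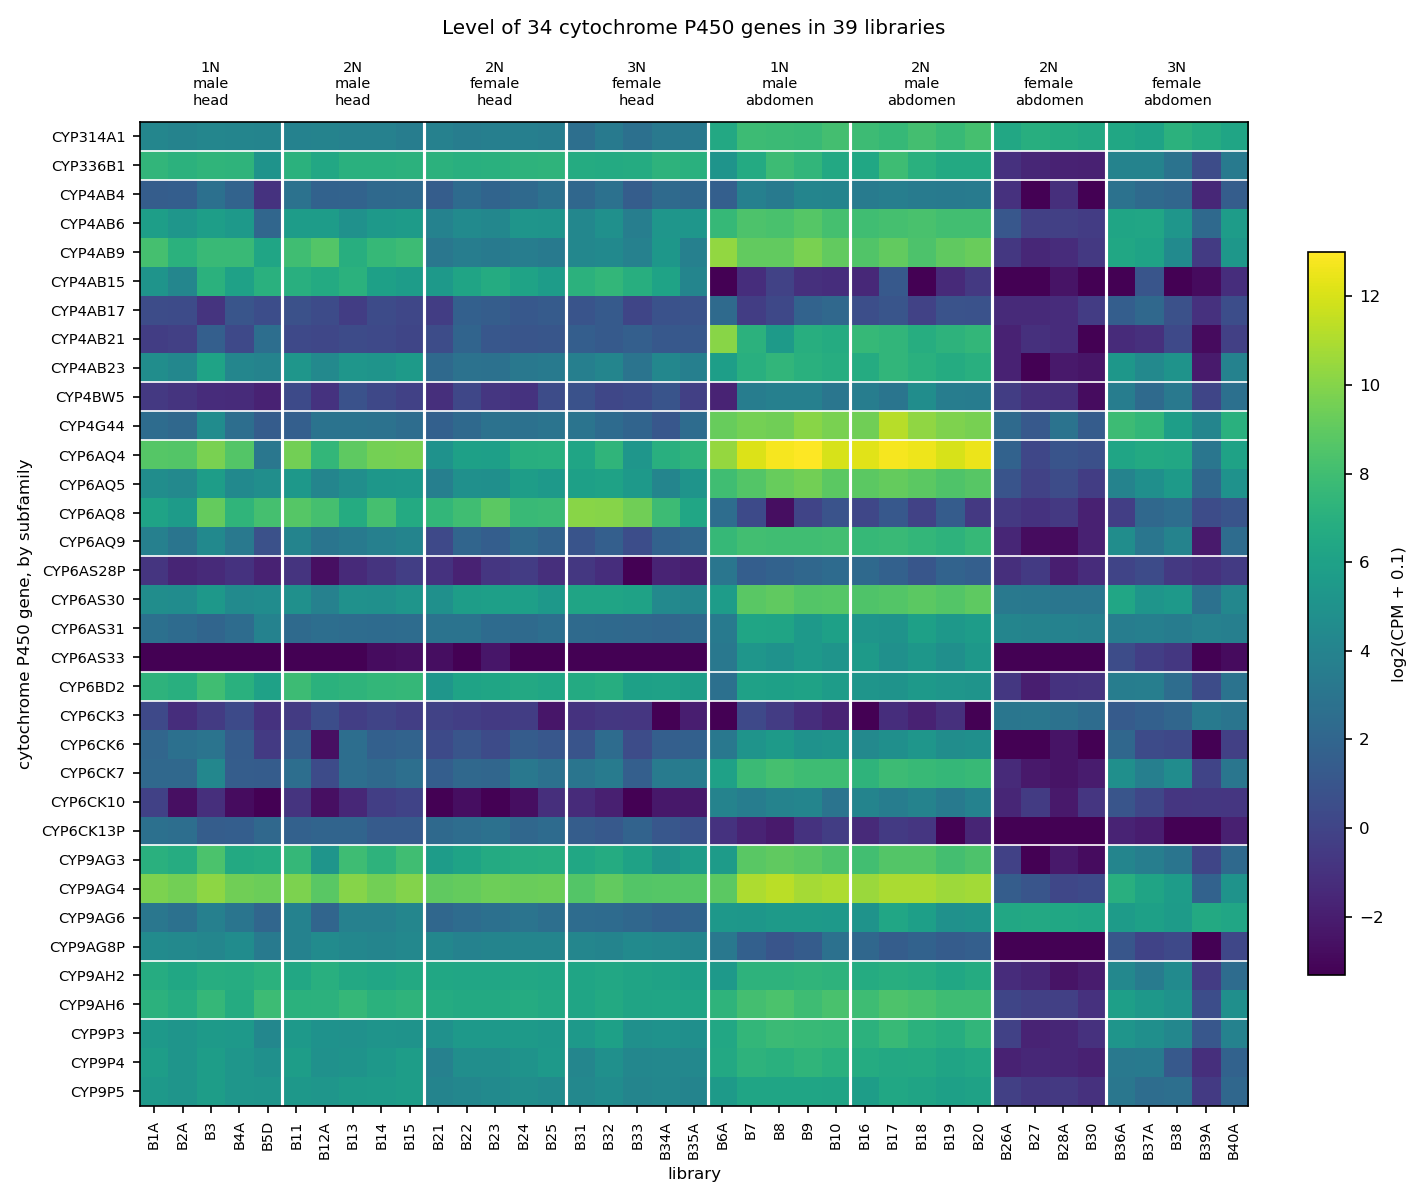
Level of each of the 34 cytochrome P450 genes (rows, by subfamily) in each of the 39 libraries (columns, by group), as log2(CPM + 0.1). The 2N female abdomens are dark for most rows, with CYP314A1, CYP9AG6, CYP6AS31 and CYP6CK3 among the exceptions, and the 3N female abdomen B39A resembles them more than its own group.

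The level of the 34 genes together differed most between male and female abdomens. Their summed TPM was 9075 ± 3049 in 1N male abdomens and 9521 ± 1063 in 2N male abdomens (SD, n = 5 each). In 2N female abdomens it was 187 ± 7.89 (n = 4), and in 3N female abdomens 653 ± 295 (n = 5). Female abdomens of either ploidy therefore lay below every male abdomen, the lowest of which was 4342 TPM, and the 3N libraries, at 249.7 to 1034 TPM, all lay above the 2N libraries, at 178 to 197 TPM. Heads lay between these extremes, with 3444 ± 1079 TPM for 1N and 4045 ± 982 TPM for 2N males, and 2488 ± 357 TPM for 2N and 2872 ± 796 TPM for 3N females. These sums are descriptions and were not tested. They leave out the 8 genes excluded by the rule, and the order of the groups depends on that. With all 42 genes the means were 14010 TPM in 1N and 21870 TPM in 2N male heads. In male abdomens they were then 15660 TPM in 1N and 18270 TPM in 2N.

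The make-up of the sum also differed. The CYP6AQ genes gave 47.4% and 52.4% of it in 1N and 2N male abdomens, mostly from CYP6AQ4, whose mean was 3900 and 4435 TPM. In the heads of all 4 groups CYP9AG genes gave 28% to 40%, chiefly CYP9AG4 with group means of 608 to 1095 TPM, and CYP6AQ genes 21.5% to 37.2%. In 2N female abdomens 2 genes made up most of what was left, CYP9AG6 with 39.3% (73.3 TPM) and CYP314A1 with 37.1% (69.4 TPM), and 9 of the 34 genes had a mean above 1 TPM. In 3N female abdomens 28 genes did, and the leading genes CYP314A1 (13.1%), CYP4G44 (12.9%) and CYP9AG6 (12.8%) had similar mean shares. Over the 8 groups, 26 of the 34 genes had their highest mean CPM in a male abdomen group (17 in 1N and 9 in 2N), and 27 had their lowest in the 2N female abdomens.

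**Figure D2:**
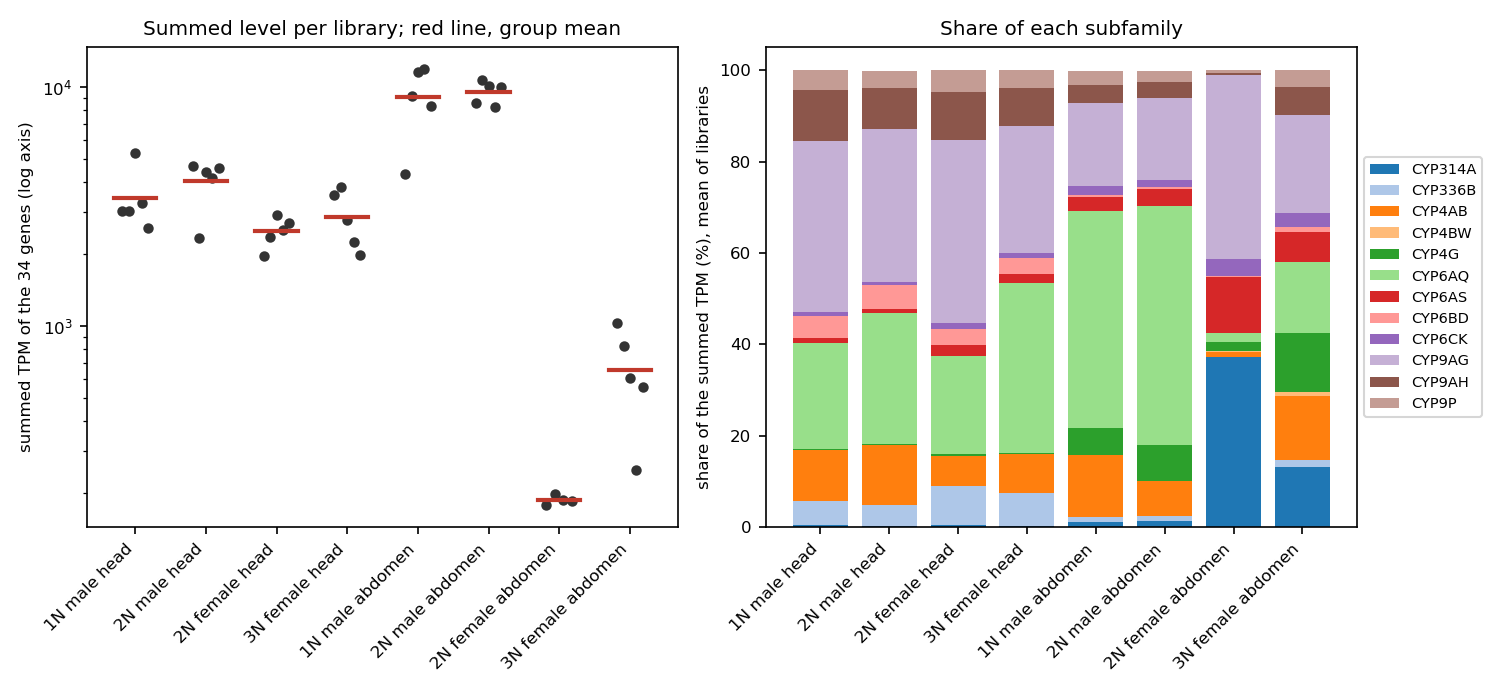
Left, summed TPM of the 34 genes in each library (points) with the group mean (red line), on a log axis. Right, share of that sum taken by each subfamily, as the mean of the libraries of a group. The 2N female abdomens lie lowest, between 178 and 197 TPM, and are mostly CYP9AG and CYP314A, while male abdomens are led by CYP6AQ.

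In abdomens at equal ploidy, 31 of the 34 genes were lower in 2N females than in 2N males and 2 were higher, while 46.3% of the 11884 genes tested were lower and 37.2% higher. The median log2 difference of the 34 genes was -8.44 (-8.19 with genes at 0 in females set to their bound), against -0.46 over all genes. The lower genes came from every subfamily, and included all 7 CYP4AB, all 4 CYP6AS and all 3 CYP9P genes. The exceptions were CYP9AG6 and CYP6CK3, which were higher in females, and CYP6AQ8, which was low in both sexes at 0.545 to 2.60 CPM in males and 0.182 to 0.553 CPM in females (log2 -1.83 ± 0.91, adjusted p = 0.0690). That gene was called lower under DESeq2, when only these 2 groups were fitted, and without B6A and B39A (adjusted p = 0.0252, 0.0151 and 0.0419, and 0.0151 to 0.252 over all 20 alternatives). In the same abdomens the 4 fat body markers (Hex83, Hex70b, Hex109 and Akhr) summed to between 310.3 and 413 CPM in 2N males and between 2.57 and 3.35 CPM in 2N females, with none at 0, and the ovary markers to at most 9.65 CPM in males and at least 3136 CPM in females. Most of the male fat body sum was Akhr, at 284.9 to 381.7 CPM. Of the 19 neuronal and eye genes 0 were called higher and 16 lower in 2N females, of 18 tested. Their sums were 284.3 to 415.2 CPM in 2N males and 18.64 to 24.98 CPM in 2N females. Of the 3 muscle markers 1 was called higher and 2 lower in 2N females. Their sums were 2147 to 2774 CPM in 2N males and 494.9 to 592.4 CPM in 2N females. The part of these tissues in the P450 differences was not tested. All 5 of the 2N male abdomens and 1 of 4 2N female abdomens were deep, and once depth class (deep or shallow) was in the model 2 genes were called higher and 29 lower.

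Between 3N and 2N female abdomens, 28 of the 34 genes rose and 0 fell. Over all genes tested 28.7% rose and 10.0% fell. The median log2 difference was 4.89 (4.64 with genes at 0 in 2N set to their bound), against 0.10 over all genes. The genes that rose were 4 of 4 CYP6AQ, 5 of 7 CYP4AB, 4 of 5 CYP6CK, 3 of 4 CYP9AG, 3 of 4 CYP6AS, 3 of 3 CYP9P and 2 of 2 CYP9AH genes, with CYP336B1, CYP4BW5, CYP4G44 and CYP6BD2. The 6 genes not called were CYP314A1, CYP9AG6, CYP6AS31 and CYP6CK3, described below, with CYP4AB15 and CYP4AB21. Most of the risen genes stayed far below the level in males: 26 of the 28 had a 3N female mean under 50% of the 2N male mean, with a median of 9.61%, while in 2N females the median of the same genes was 0.243%. The exceptions were CYP6AQ8 and CYP4AB17, with 193% and 142% of low male levels.

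The 3N libraries did not share the rise equally. Taking each library against the mean of the 2N libraries, the median log2 difference of the 34 genes was 5.66 in B36A, 5.38 in B37A, 4.79 in B38 and 4.56 in B40A, but 0.72 in B39A. In the 2N libraries it ran from -0.17 to 0.48, so B39A lay just above them and far below the other 4. Summed marker levels moved in the same libraries: the ovary markers summed to 1190 CPM in B36A, 1552 in B37A, 1452 in B38 and 1979 in B40A, but to 3034 in B39A, close to the 3136 to 3731 CPM of the 2N libraries. The fat body markers summed to 55.8, 53.5, 21.4 and 22.7 CPM in the same 4 libraries and to 4.13 CPM in B39A, against at most 3.35 CPM in 2N. Most of that sum in the 4 libraries was Akhr, with 42.32, 47.06, 17.25 and 18.11 CPM. Hex109 overlapped, at 0.568 to 3.735 CPM in 3N and 0.631 to 2.14 CPM in 2N. Of the 4 ovary markers 0 were called higher and 1 lower in 3N, and of the 4 fat body markers 3 higher and 0 lower. The 3 muscle markers on the list gave 2 called higher and 1 lower in 3N, and the 19 neuronal and eye genes 11 higher and 0 lower of 18 tested. The part of these tissues in the rise was not tested. Without B39A, 28 of the 34 genes were called, and without both B39A and B6A 30 were, with a median of 5.17.

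**Figure D3:**
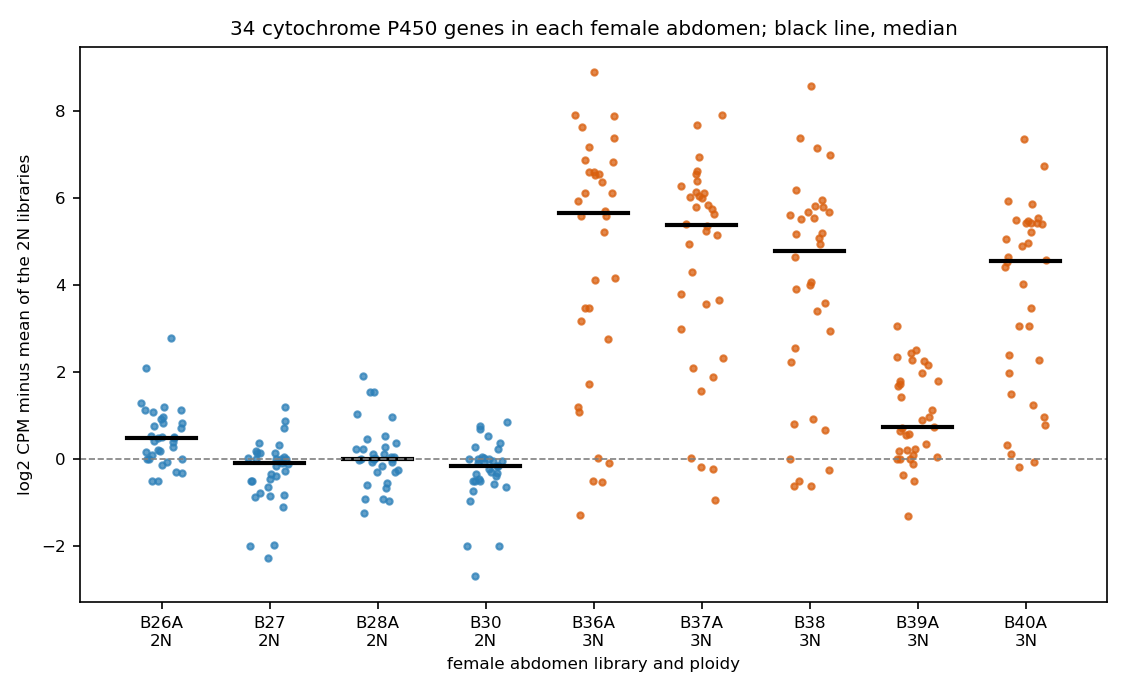
Each point is 1 of the 34 genes in a female abdomen library, as log2 CPM minus the mean log2 CPM of the 2N libraries; the black line is the median. Medians lie between 4.56 and 5.66 in 4 of the 3N libraries and at 0.72 in B39A, while the 2N libraries lie around 0.

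The rise with ploidy was larger in female abdomens than in female heads for 25 of the 34 genes and smaller for 0, with 22.9% of all genes larger and 9.43% smaller (the difference between the ploidy differences, tested over all 39 libraries). It was also larger than the 2N against 1N difference of male abdomens for 25 genes and smaller for 0, against 23.6% and 3.44% of all genes. CYP314A1, CYP9AG6, CYP6AS31, CYP6CK3, CYP4AB15, CYP4AB21, CYP6AQ8 and CYP6CK10 were called in neither of these tests. The sex difference at 2N was more negative in abdomens than in heads for 31 genes and more positive for 2, CYP9AG6 and CYP6CK3, against 40.3% and 34.1% of all genes. These tests share libraries with the simple comparisons and are no separate evidence for them.

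Ploidy gave 0 called P450 genes in the other tissues. In male abdomens 0 of 34 were called (0.0421% of all genes), 0 had an unadjusted p under 0.05, and log2 differences ran from -1.43 to 0.77. Leading genes had wide errors, as in CYP6AQ4 (log2 0.11 ± 0.52) and CYP4G44 (0.58 ± 0.53), so changes of that size were not detectable here. In male heads 0 of 31 tested genes were called (0.0738% of all genes), 2 had an unadjusted p under 0.05, and the largest difference was in CYP4BW5 (1.54 ± 0.44, adjusted p = 0.242), at 0.544, 0.453, 0.313, 0.301 and 0.191 CPM in 1N and 1.17, 0.413, 1.66, 1.06 and 0.803 CPM in 2N. The 3 genes that did not pass the filter on low counts in heads were CYP6AS28P, CYP6AS33 and CYP6CK10. DESeq2 and the tests on TPM also called 0 in both male tissues.

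In female heads 0 of 31 genes were called (0.313% of all genes), and 5 had an unadjusted p under 0.05. CYP314A1 came closest (-0.60 ± 0.14, adjusted p = 0.0570), followed by CYP6CK13P (-1.08 ± 0.26, adjusted p = 0.0663) and CYP4AB9 (1.02 ± 0.34, adjusted p = 0.125). This comparison moved with the setting: DESeq2 called 3 genes, a fit of the 2 groups alone 6, and a model with depth class 4, while the shallow libraries alone gave 0. The share of all genes called under these settings is not given here, so these counts cannot be read as particular to P450 genes. All 2N female heads were shallow and 3 of 5 3N female heads were deep. Within the 3N heads, the deep and shallow libraries overlapped for most P450 genes. Among the others, more were higher in the deep libraries than were lower. CYP6AQ8 had 1107, 1025 and 687 CPM in the deep 3N heads B31, B32 and B33, and 229 and 81.1 CPM in the shallow B34A and B35A. CYP336B1 went the other way, with 101.9 to 105.5 CPM in the deep and 133.2 to 146.6 CPM in the shallow 3N heads. Such orders were not counted over all genes. Depth class and ploidy cannot be fully told apart in these heads.

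In heads at 2N, 8 of 31 genes were lower in females and 1 was higher, against 15.9% and 12% of all genes. The median log2 difference was -0.48, against 0.02 over all genes. The 8 were CYP4AB9, CYP4AB23, CYP6AQ4, CYP6AQ9, CYP6BD2, CYP9AG6, CYP9AH6 and CYP9P5. The 1 gene higher in females was the pseudogene CYP6CK13P (log2 0.73 ± 0.26, adjusted p = 0.0425), which lost its call in 12 of 21 alternatives (adjusted p = 0.0130 to 0.464 over all of them), among them the removal of any single library of the 2 groups other than B12A. All 2N female heads were shallow and 4 of 5 2N male heads deep, and once depth class was in the model 6 genes were called, 2 higher and 4 lower. CYP6AQ4, CYP6BD2, CYP9AG6, CYP9AH6 and CYP6CK13P were then not called (adjusted p = 0.0583 to 0.597), and CYP6AQ5 and CYP6AS30 were called higher in females. The ovary markers in the 2N female head B21 reached 147 CPM, and its P450 levels are given with the others.

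Abdomens exceeded heads in males for most genes. In 1N males 24 genes were higher in abdomens and 5 lower (31.8% and 33.4% of all genes), and in 2N males 21 and 6 (32.5% and 32.8%). In 2N females the order was the other way, with 5 higher and 25 lower in abdomens (37.7% and 42.6%). In 3N females 10 were higher and 14 lower (38.3% and 34.6%), and on log2(TPM + 1) this split became 8 higher and 18 lower. Without B39A and B6A it was 14 and 14. CYP314A1, CYP9AG6, CYP6AS31 and CYP6CK10 were higher in the abdomen in all 4 comparisons, and CYP4AB15, CYP6AQ8, CYP6BD2, CYP6CK13P and CYP9AG8P higher in the head in all 4.

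The 1 gene here with a fixed role in hormone synthesis, CYP314A1, is the orthologue by name of Drosophila shade, which turns ecdysone into its active form. In abdomens it had 93.2, 229.8, 226, 213 and 273 CPM in 1N and 231, 193, 278, 199.6 and 288 CPM in 2N males, and 88.7, 117, 103 and 93.5 CPM in 2N and 85.7, 71.4, 141, 103 and 78.6 CPM in 3N females. The 2N female values all lay below the 2N male values, and the 3N and 2N female values overlapped. The sex difference at 2N was log2 -1.33 ± 0.25, adjusted p = 9.01e-05, small beside those of most other genes here, and the ploidy difference in female abdomens was 0.10 ± 0.24, adjusted p = 0.785. In heads it was lower, at 14.4, 11.9, 12.8, 13.2 and 11.8 CPM in 2N females and 6.24, 10.2, 6.36, 9.76 and 9.37 in 3N females, and these ranges did not overlap although the gene was not called there. Its call in female heads was made with library totals, with DESeq2 and with the 2 groups alone (adjusted p = 0.0317, 0.00665 and 0.0287, and 0.00665 to 0.204 over all 22 alternatives). Of the listed redox partners of P450 enzymes 0 matched a symbol, and of the hormone pathway 1 did, the ecdysone receptor Ecr, which was called lower in 2N female than in 2N male abdomens (log2 -2.30) and was called higher between female abdomens at 3N and those at 2N (log2 1.07).

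CYP4G44 belongs to the CYP4G genes, which in Drosophila make cuticular hydrocarbons in oenocytes. In males it was an abdomen gene, with 589, 749, 698, 1072 and 826 CPM in 1N and 710.3, 2372, 1266, 909 and 815 in 2N, against 2.58 to 24.5 and 2.96 to 7.37 in heads. The head and abdomen values did not overlap, and the tissue difference was log2 7.66 ± 0.67, adjusted p = 8.32e-12 in 2N males. Female abdomens had 4.89, 2.30, 7.48 and 2.59 CPM at 2N and 228, 177, 57.5, 17.3 and 129 at 3N. The ploidy groups did not overlap, with B39A the lowest 3N library, and the gene rose by log2 5.03 ± 0.69, adjusted p = 2.69e-05. In 2N females its head and abdomen levels were not told apart (-0.43 ± 0.56, adjusted p = 0.477).

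The CYP4AB genes were uneven in tissue and sex. CYP4AB9 had the largest sex difference in heads of the 31 genes tested there, with 253, 396, 121, 193 and 231 CPM in 2N male heads and 8.64, 11.99, 10.5, 11.7 and 10.4 in 2N female heads. Every male head lay far above every female head, and the only shallow male head, B12A, had the highest value at 396 CPM. The difference was log2 -4.51 ± 0.39, adjusted p = 1.08e-07. In abdomens it was 349 to 613 CPM in 2N males, and 0.513, 0.256, 0.312 and 0.545 CPM in 2N and 84.1, 71.9, 22.8, 0.613 and 39.3 CPM in 3N females. Those of the 3N libraries other than B39A lay far above 2N, and B39A at 0.613 CPM lay just above the highest 2N library. CYP4AB6 and CYP4AB23 also rose, and B39A lay above the 2N libraries for CYP4AB6 (4.58 CPM against at most 2.01) but within their range for CYP4AB23 (0.123 CPM against 0 to 0.197). The rises were log2 5.81 ± 0.68, adjusted p = 1.23e-05 and 8.08 ± 1.15, adjusted p = 3.36e-05 from 2N to 3N females.

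CYP4AB21 was found almost only in male abdomens, with 1090, 143, 47.2, 122 and 104 CPM in 1N and 195, 170.2, 117, 149 and 175 in 2N. The first of these, B6A, was far above all others. Heads had at most 5.88 CPM, 2N female abdomens 0 to 0.372 CPM and 3N female abdomens 0.0409 to 1.10 CPM. These female ranges overlapped, and the gene was not called between them (1.44 ± 1.00, adjusted p = 0.266), except without B6A and B39A (adjusted p = 0.0139 to 0.828 over 19 alternatives). CYP4AB15 was the reverse, a head gene with 52.3 to 134 CPM in 2N male heads, 44.5 to 103 in 2N female heads and at most 2.27 CPM in any abdomen. CYP4AB4 and CYP4AB17 were low throughout, at most 17.1 and 4.90 CPM, and both rose in 3N female abdomens (log2 4.57 ± 0.99 and 2.69 ± 0.72), calls lost in the shallow libraries alone. CYP4BW5 stood at 7.95 to 25.9 CPM in 2N male abdomens, and the 1N male abdomen B6A had 0.207 CPM against 8.18 to 13.6 CPM in the other 4.

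CYP6AQ4 had the highest level per length of the 34 genes in male abdomens. It gave 1361, 4509, 6879, 8132 and 4188 CPM in 1N and 5002, 7088, 6087, 4138 and 5753 CPM in 2N males, and 3.35, 1.02, 1.79 and 1.5 CPM in 2N and 78.4, 98.1, 89.2, 8.42 and 68.5 CPM in 3N females. No male abdomen overlapped any female abdomen, and the sex difference at 2N was log2 -11.59 ± 0.90, adjusted p = 1.78e-09. Of the 2 female groups, all 3N libraries lay above the 2N libraries, B39A with the smallest margin (log2 5.36 ± 0.70, adjusted p = 1.74e-05). In heads it was 736, 181, 482, 772 and 808 CPM in 2N males and 31.3, 62.8, 59.3, 120.1 and 123 in 2N females, also without overlap (-2.94 ± 0.71, adjusted p = 0.00412). That call was lost with depth class in the model (log2 -2.34, adjusted p = 0.0583), and the 181 CPM came from B12A, the only shallow 2N male head. The 1N male head B5D had 8.75 CPM, below every 2N female head.

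CYP6AQ5 lies beside CYP6AQ4 in RefSeq's gene order with no gene between, and the 2 did not keep a fixed ratio. The ratio of CYP6AQ4 to CYP6AQ5 TPM was 9.58 to 12.3 in 2N male abdomens and 9.85 to 17.9 in 2N male heads, but 1.15 to 2.00 in 2N female abdomens and 1.94 to 2.64 in 2N female heads. In 3N females it was 1.72 to 4.51 in abdomens and 0.806 to 6.68 in heads. The sexes at 2N therefore did not overlap in either tissue, although the female abdomen ratio rests on 208 and 128 counts in all. In 1N male heads it was 0.298 in B5D against a median of 14.5. The neighbours CYP9AG4 and CYP9AG3 had group medians of 4.42 to 6.36 and single libraries from 3.30 to 11.8, leaving out the 2N female abdomens, where CYP9AG3 had 24 counts. For this pair the 2N male and 2N female heads overlapped, at 3.63 to 11.8 and 5.36 to 9.26. These ratios were not tested. The counting shares reads between near-identical copies, which can affect genes of 1 subfamily.

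CYP6AQ8 was a head gene, with 407, 293, 103, 290.2 and 101 CPM in 2N male heads, 176, 250, 469, 212 and 226 in 2N female heads and at most 5.65 CPM in any abdomen. The head groups overlapped. Its small rise in 3N female abdomens, from 0.553, 0.419, 0.545 and 0.182 to 0.722, 4.42, 5.53, 1.31 and 1.77 CPM (log2 2.88 ± 0.94, adjusted p = 0.0225), was lost without B27, without B30, without B38 and in the shallow libraries alone (adjusted p = 0.0579 to 0.0698, and 0.00326 to 0.0698 over all 21 alternatives). CYP6AQ9 was an abdomen gene in males at 151 to 211 CPM, with 0.0389 to 0.237 CPM in 2N and 0.123 to 25.3 CPM in 3N female abdomens, where B39A fell within the 2N range.

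**Figure D4:**
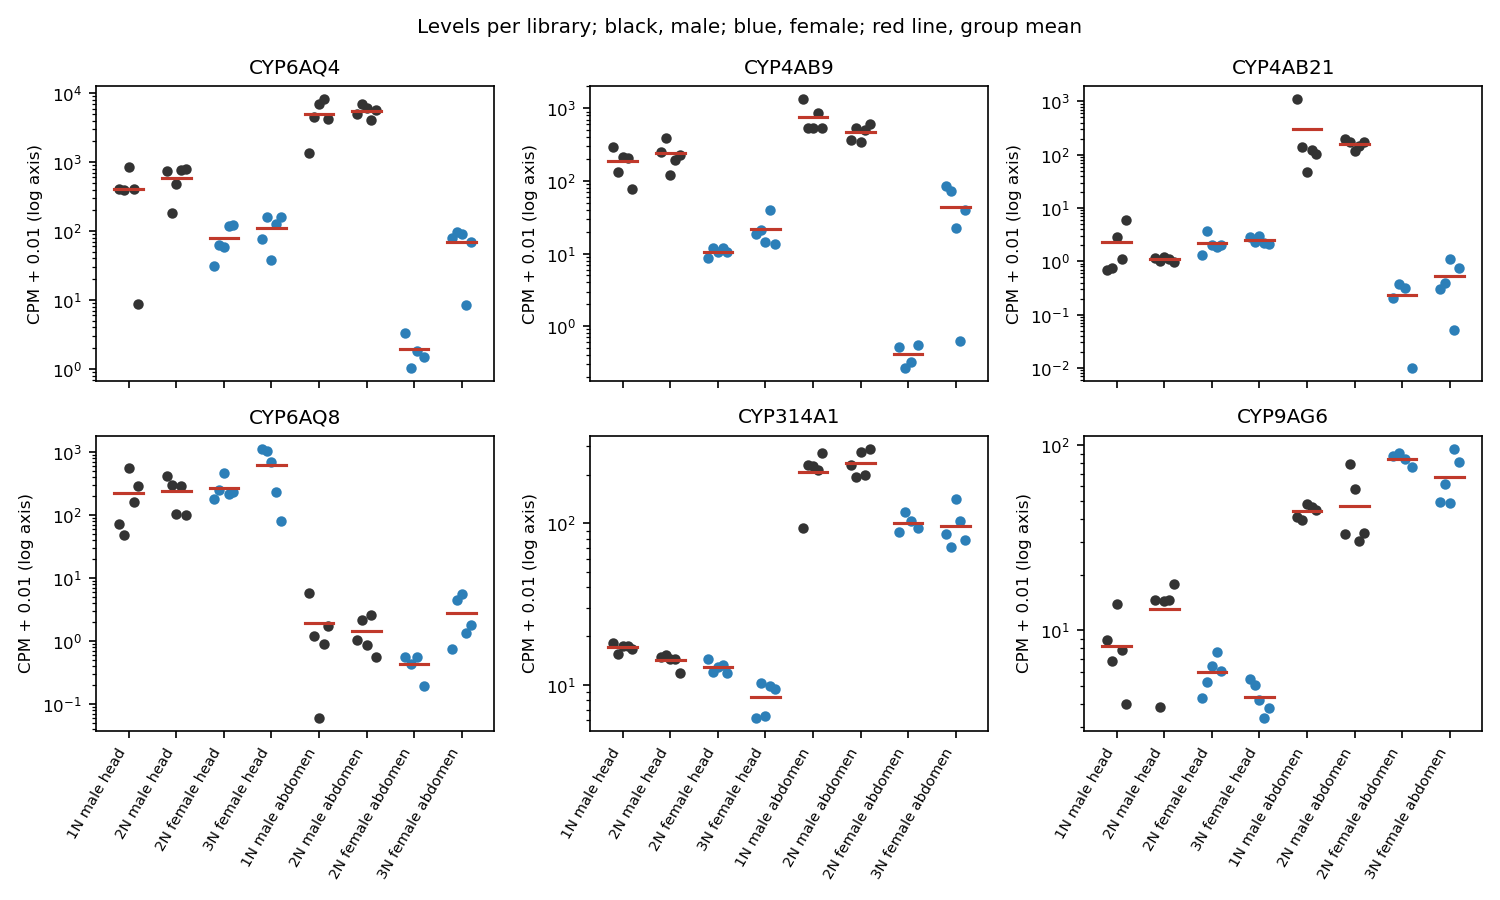
CPM + 0.01 in each library (points, log axis) for 6 genes that show the main patterns, with the group mean in red; males are black and females blue. CYP6AQ4 and CYP4AB9 are lower in 2N females than in 2N males, CYP4AB21 is high only in male abdomens, CYP6AQ8 only in heads, and CYP314A1 and CYP9AG6 remain high in 2N female abdomens.

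Among the CYP6AS genes, whose honey bee relatives oxidise plant flavonols, CYP6AS33 was the most restricted. It had 28.4 to 46.6 CPM in 2N male abdomens and 8.96 to 44.2 in 1N male abdomens, at most 0.0972 CPM in any head, and 0 counts in all 4 2N female abdomens. In 3N female abdomens it had 1.27, 0.729, 0.534, 0 and 0.0412 CPM, with B39A at 0, so the rise was at least 19.9-fold against a floor of 3 counts over the 2N group, and the 2N males were at least 1501-fold higher than the 2N females. CYP6AS31 was different, with 17.3, 15.5, 14.99 and 13.9 CPM in 2N and 12.1, 13.1, 11.3, 14.1 and 13.1 CPM in 3N female abdomens. These overlapped (log2 -0.11 ± 0.36, adjusted p = 0.839), and both were well above the 4.94 to 7.45 CPM of 2N female heads. CYP6AS30 rose from 8.18 to 9.59 CPM in 2N to 6.74 to 81.7 in 3N female abdomens, with B39A, at 6.74 CPM, below every 2N library. The call was lost in the shallow libraries alone (adjusted p = 0.0704, and 1.77e-06 to 0.0704 over all 21 alternatives).

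CYP6CK3 was one of 2 genes that were higher in female than in male abdomens. It had 8.45, 8.79, 6.85 and 5.27 CPM in 2N females and 2.46, 3.11, 4.14, 10.6 and 8.08 in 3N females, against 0 to 0.390 CPM in 2N males. The sexes did not overlap (log2 5.25 ± 1.07, adjusted p = 0.000196), and the female groups did (-0.24 ± 0.92, adjusted p = 0.863). Of the 3N libraries, B39A had the highest value. CYP6CK6, CYP6CK7 and CYP6CK10 had their highest means in male abdomens, and the pseudogene CYP6CK13P in heads. CYP6CK7 led them with 155 to 229 CPM in 2N males, and 0.276, 0.116, 0.0779 and 0.136 CPM in 2N and 27.3, 12.9, 24.4, 0.899 and 8.46 CPM in 3N females. All 3N libraries were above all 2N libraries (log2 6.83 ± 0.87, adjusted p = 1.60e-05). CYP6CK6 had 2 counts in the 2N female abdomens together, and the 3N level was 75.9 times higher with a 95% counting interval of 20.8 to 630.3. CYP6CK10, near 0 in heads, was called higher in the abdomens of 2N females (2.00 ± 0.93, adjusted p = 0.0483), a call lost in 16 of 19 alternatives. CYP6BD2 was highest in male heads, at 138 to 228 CPM in 2N males against 37.9 to 90.8 in 2N females (log2 -1.35 ± 0.30, adjusted p = 0.00225). This sex call was lost with depth class in the model (log2 -0.76, adjusted p = 0.0613).

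CYP9AG4 led the CYP9 genes, a family that in honey bees includes enzymes that break down insecticides. It had 1475, 1969, 1894, 1569 and 1719 CPM in 2N male abdomens, 2.72, 1.84, 1.01 and 1.18 in 2N female abdomens and 127, 74.3, 51.2, 3.43 and 32.9 in 3N female abdomens. The sexes did not overlap, and the 3N libraries lay above the 2N libraries with B39A nearest to them (log2 5.31 ± 0.79, adjusted p = 4.90e-05). Its heads were closer, at 442 to 1050 CPM in 2N males and 515 to 659 in 2N females, and the sex difference there was not called (-0.48 ± 0.20, adjusted p = 0.0788). Without the male head B12A it was (adjusted p = 0.00800, and 0.00800 to 0.923 over all 21 alternatives).

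CYP9AG6 ran against its subfamily. In abdomens it had 41.1, 39.5, 48.2, 46.3 and 44.8 CPM in 1N and 33.2, 78.7, 57.8, 30.4 and 33.8 CPM in 2N males, and 87.1, 90.7, 84.0 and 76.4 CPM in 2N and 49.3, 62.1, 48.6, 95.4 and 81.2 CPM in 3N females. At 2N the female values lay above those of all males but B17, which lay within the female range, and the gene was called higher in females (log2 0.77 ± 0.24, adjusted p = 0.00710). In heads it had 14.7, 3.84, 14.5, 14.6 and 17.8 CPM in males and 4.30, 5.27, 6.41, 7.65 and 6.05 in females, where the shallow male head B12A lay below every female head and the other 4 above. It was called lower in female heads (-1.18 ± 0.33, adjusted p = 0.0116), but not with depth class in the model (-0.26, adjusted p = 0.597) nor in the 3 tests on TPM, in 4 of 21 alternatives in all (adjusted p = 0.000701 to 0.597). The interaction of sex and tissue was called (2.00 ± 0.43, adjusted p = 9.34e-05), also with depth class in the model (1.92, adjusted p = 6.96e-05) and in all 29 alternatives (adjusted p = 2.26e-06 to 0.000699). In 3N females the highest libraries were B39A and B40A, and the ploidy difference was not called (-0.18 ± 0.24, adjusted p = 0.587).

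The 2 CYP9AH and 3 CYP9P genes all rose in 3N female abdomens. From 2N to 3N CYP9AH2 rose by log2 6.10 ± 0.84, adjusted p = 2.63e-05 and CYP9AH6 by 5.71 ± 0.73, adjusted p = 1.63e-05, and CYP9P3, CYP9P4 and CYP9P5 by 5.85 ± 0.71, 4.75 ± 0.73 and 3.38 ± 0.52. CYP9AH6 had 243 to 347 CPM in 2N males, and 0.947, 0.744, 0.740 and 0.409 CPM in 2N and 58.2, 41.4, 32.1, 1.35 and 27.9 CPM in 3N females, without overlap between the 3 groups. CYP9P5, which lies near CYP9P4 in RefSeq's order with 2 genes between, was lower in female than in male heads, at 16.5, 18.5, 22.2, 26.1 and 23.2 against 41.6, 37.1, 46.7, 50.04 and 52.9 CPM (log2 -1.13 ± 0.15, adjusted p = 2.37e-05). CYP336B1, of a family that in honey bees includes a nicotine-oxidising enzyme, had 85.8 to 243 CPM in 2N male abdomens, 0.395, 0.233, 0.195 and 0.182 in 2N female and 15.5, 15.8, 7.20, 1.31 and 10.1 in 3N female abdomens. The ploidy groups did not overlap (5.51 ± 0.79, adjusted p = 3.45e-05), while its head levels, 87.3 to 143 CPM in 2N males and 126 to 155 in 2N females, did.

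Of the 3 pseudogenes, CYP9AG8P and CYP6CK13P were found chiefly in heads, with group means there of 42.1 to 47.7 and 11.6 to 24.4 TPM. These lay above the 4 head means of some coding genes, such as CYP4G44, in TPM. In CPM, which is not scaled for length, CYP6CK13P had head means of 2.45 to 5.26. Each was below the mean of CYP4G44 in the same head group (4.81 to 8.56 CPM). CYP9AG8P had 15.1 to 23.4 CPM in 2N males and 14.6 to 18.8 in 2N females. It had 0 counts in the 2N female abdomens and 1.95, 0.875, 1.12, 0 and 0.990 CPM in 3N ones, at least 40.01-fold higher. CYP6CK13P also had 0 counts in the 2N female abdomens, with 0.212, 0.146, 0, 0 and 0.165 CPM in 3N, at least 2.54-fold higher, on 12 counts. The calls of CYP6CK13P, CYP6AS28P and CYP6CK10 between 2N and 3N female abdomens were lost in 11 of 19, 15 of 21 and 10 of 21 alternatives. CYP6AS28P was highest in male abdomens, at 2.86 to 8.48 CPM in 1N and 1.94 to 4.68 in 2N.

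The 29 genes with symbols of glutathione S-transferases and carboxylesterases, enzymes that conjugate or hydrolyse foreign compounds, were set beside the P450 genes. They were matched on the start of the symbol alone, which also took in Gstcd, whose role was not checked. Of the 29 genes, 16 rose and 0 fell from 2N to 3N female abdomens (28.7% and 10.0% of all genes), with a median log2 difference of 1.77. Between the sexes at 2N, 22 were lower and 5 higher in female abdomens (46.3% and 37.2% of all genes), with a median of -4.11. Their summed level overlapped, at 1753 to 2258 CPM in 2N and 1751 to 2196 CPM in 3N female abdomens. The highest of them in both groups was GstS8, named after its values were seen, with 799 to 1240 CPM in 2N and 352 to 790 CPM in 3N (log2 -0.71 ± 0.38, adjusted p = 0.149). Without it the sums were 954 to 1094 CPM in 2N and 962 to 1845 CPM in 3N, which also overlapped. Ploidy called 0 of them in heads or male abdomens.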

How the data were processed

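The authors deposited 2 tables, one of raw estimated counts (14621 genes) and one of TPM (14613 genes). Per the submitters' processing notes the tools were RSEM 1.3.1 and STAR 2.7.11a, listed with no role. Genome build, annotation and strand setting were not given in the sources used here. Poly(A) RNA was prepared with an NEBNext Ultra kit, per the labels' protocols. In the deposited estimated counts 16.8% of values are not whole, and they were rounded; RSEM-type counts divide reads shared by near-identical copies, which bears on genes of 1 subfamily. The deposited TPM values were used as they stand for levels between genes, sums and ratios.

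Groups came from the labels. Counts were tested in edgeR 4.0.16 under R 4.3.3 by its quasi-likelihood test (TMM, filterByExpr, two-sided, Benjamini-Hochberg over all genes of a fit): heads together (20 libraries, 10846 genes), abdomens together (19 libraries, 11884 genes), and all 39 libraries (12402 genes) for tissue comparisons and for differences between effects across tissues. There were 13 comparisons. All 34 genes passed the filter in abdomens and in the fit of all libraries, and 31 in heads. CPM use the TMM scale of all 39 libraries. Where a group had 0 counts the fold is a bound from 3 counts over the group, and with 1 to 3 counts a ratio with its 95% interval; both cover counting error only. Each of the 76 pairs of libraries within a group differed beyond sampling noise, with chi-square at least 10.8 times its degrees of freedom. The fits were also run on simulated data with known changes, drawn from the mean of each gene with a spread set by level. That simulation held no effect of depth class and no library apart from its group, so it does not bear on these.

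All 14621 symbols matched the RefSeq table of assembly Nvit_psr_1.1, used for names, biotypes and gene order only. The gene set, the gene lists and the tests were chosen with earlier results of these data known. Genes named are, in each comparison, up to 6 called in each direction by smallest adjusted p, the gene with the highest TPM of each subfamily, the 6 highest of each tissue and those of a conserved role; CYP4AB4, CYP4AB17, CYP6AS28P, CYP6CK6 and genes named as not called were added after their values were seen. Alternatives were other scalings (RLE, library totals), no filter, a term for deep libraries, DESeq2 1.42.0, limma 3.58.1 on log2(TPM + 1) and log2(TPM + 0.1), other sets of libraries, and leaving out each library.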

Additional observations from a re-analysis of the deposited data

Results flagged for a closer look

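The effect of ploidy or sex differed between tissues or sexes by a test of the difference itself in 3 comparisons. Of the 34 genes, 25 differed in the ploidy effect between female abdomens and heads (22.9% of all genes larger and 9.43% smaller). In the ploidy effect between female and male abdomens 25 differed (23.6% of all genes larger and 3.44% smaller). In the sex effect between abdomens and heads 33 differed (34.1% of all genes more positive and 40.3% more negative).

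Single libraries stood far from the rest of their group in 33 of 243 sets of values checked, where chance flags about 1 in 20 (12.2). The 1N male head B3, the only deep library of its group, was high for 6 genes: CYP4G44 (24.5 CPM, the others at most 5.89), CYP6AQ5 (52.9, at most 26.8), CYP6AS30 (41.9, at most 25.9), CYP6CK7 (18.3, at most 4.53), CYP9AG3 (330, at most 129.9) and CYP4AB23 (71.4, at most 25.6). Its sum over the 34 genes was 5319 TPM, against at most 3274 TPM in the others. The 1N male abdomen B6A, the only shallow one of its group, was low for CYP6AS30 (52.8 CPM, the others at least 403), CYP6BD2 (6.48, at least 51.2), CYP6AQ9 (198, at least 252), CYP9P5 (47.1, at least 73.5) and CYP9AH2 (46.1, at least 150.4), and high for CYP4AB21 (1090, at most 142.5 in the others). The 1N male head B5D was low for CYP336B1 (33.3 CPM, the others at least 140.7) and high for CYP6AS31 (15.01, at most 6.28).

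The 2N male head B12A, the only shallow one of its group, was low for CYP336B1 (87.3 CPM, the others at least 131) and CYP9AG6 (3.84, at least 14.5). Its sum over the 34 genes was low as well (2325 TPM, the others at least 4174). Other 2N male heads apart from their group were B15 for CYP314A1 (11.8 CPM), B11 for CYP9P3 (44.8) and B13 for CYP4AB6 (30). In 2N male abdomens B17 was high for CYP336B1 (243 CPM) and CYP4AB15 (2.27), and B18 for CYP4BW5 (25.9). In 2N female heads B23 was high for CYP6AQ8 (469 CPM) and B25 for CYP6CK10 (0.356). In 3N female heads B32 was high for CYP9AG4 (534 CPM), CYP9AH6 (97.7) and CYP9P4 (29.1). In female abdomens the 2N library B26A was high for CYP9AG3 (0.789 CPM) and CYP4AB6 (2.01), the 2N library B28A for CYP4AB15 (0.0779, the others 0), and the 3N library B37A for CYP4AB15 (1.90). The part of depth in these values was not tested.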

How the results depend on the processing

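Counts of called genes stayed within 1.5 times the main count under all alternatives run, except the following. Between 3N and 2N female heads, where 0 genes were called, library totals alone gave 1, DESeq2 3, a term for deep libraries 4 and the 2 groups alone 6. Deep libraries alone gave 2 for ploidy in male abdomens (main 0), shallow libraries alone 18 of 30 tested for ploidy in female abdomens (main 28), and log2(TPM + 1) with no filter 16 for the ploidy effect between female and male abdomens (main 25). The cause was not tested, and the shares of all genes called under these alternatives are not given here. Of 3644 values of single named genes under alternatives, 3584 kept direction and side of the threshold, 41 lost and 17 gained a call, and 2 reversed with a term for deep libraries: CYP6AS30 between female heads (log2 -0.98, adjusted p = 0.0276, main 0.07) and CYP6AQ5 between the sexes in heads (log2 0.96, adjusted p = 0.0488, main -0.04). Leaving out each library gave 25 to 28 for ploidy in female abdomens and 32 to 33 for sex in abdomens, and kept the other counts within 1.5 times as well. Scaling moved the median over all genes: between the sexes in abdomens it was -0.46 with TMM, -0.62 with RLE and -0.03 with library totals, and between tissues in 1N males -0.02, 0.07 and -0.37. Tests within 1 depth class were not run where a group had fewer than 2 such libraries. No paired analysis was possible because the groups share no library numbers. Low counts limit most genes in 2N female abdomens, where 3 counts correspond to 0.0666 to 0.151 CPM.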
